A study of Mus musculus with 2 samples.

Results

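Open chromatin was mapped by ATAC-seq in undifferentiated mouse embryonic stem cells (ESCs), and the regions described here are 1440 distal open sites that were listed for WT ESCs and had no counterpart in Uhrf1 KO ESCs. The members were chosen by a rule applied to the lists of peaks, which were short intervals of 1 fixed width. A WT peak was a member if it lay on an autosome other than chromosome 8, outside assembly gaps, with its centre more than 2 kb from every GENCODE vM1 transcription start site (TSS), with no KO peak within 100 bp, and with the number in its name in the lower 50% of the numbers of its chromosome. Of 71914 WT peaks, 64499 lay on the 18 autosomes outside gaps, 29546 of these were distal, and 10946 of the distal peaks had a low number. The members were the 1440 of these 10946 peaks that lacked a KO peak, which is 13.2%. Of the high-number distal WT peaks, 52.9% lacked a KO peak (9832 of 18600), and 17.0% of the low-number distal KO peaks lacked a WT peak (2025 of 11883). Over distal peaks of any number, 38.2% of WT peaks were WT-only (11272 of 29546) and 38.6% of KO peaks were KO-only (11193 of 29013). These shares follow from the contrast that chose the members and are given as descriptions.

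The WT library came from E14 ESCs and the KO library from Uhrf1 KO E14 ESCs, both cultured with serum and leukemia inhibitory factor on gelatin or feeder cells, with 50000 cells lysed for each. Each genotype had 1 library, so no peak has a replicate error, the genotypes were not tested against each other, and every difference below is one between these libraries. The methods say that both lines came from another group, and give no number of clones for the KO line. Reads per peak are not in the lists, so the depth behind a single peak is unknown. Intervals are 95% exact (Clopper-Pearson for shares, order statistics for medians). They cover counting error over peaks only, and neighbouring peaks are not independent of each other.

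Uhrf1 binds hemimethylated CpG sites behind the replication fork and recruits the maintenance methyltransferase Dnmt1, and it also has domains that read and ubiquitinate histone H3. Distal open sites in ESCs include enhancers bound by Oct4, Sox2 and Nanog, sites of the insulator protein CTCF, and unmethylated CpG islands far from annotated starts. In ESCs many CpG islands of developmental genes carry both an activating and a repressive histone mark, a state called bivalent, and the COMPASS and Polycomb complexes deposit these marks.

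The sequences of the 8 members with the lowest relative name number and a single-copy centre are shown because they head the ranking, with each CpG in capitals. The relative name number is the rank of the number divided by the peaks of the chromosome. Each line gives the nearest protein-coding gene and the position in mm9, on the plus strand.
Plod2, chr9:93068266-93068366: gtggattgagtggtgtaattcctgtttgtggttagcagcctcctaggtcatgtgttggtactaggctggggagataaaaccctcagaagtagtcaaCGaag
App, chr16:85021806-85021906: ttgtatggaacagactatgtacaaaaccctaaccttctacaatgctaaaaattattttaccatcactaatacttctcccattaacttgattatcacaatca
Sept5, chr16:18694636-18694736: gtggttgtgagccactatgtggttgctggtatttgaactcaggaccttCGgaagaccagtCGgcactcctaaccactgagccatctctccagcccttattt
Sfi1, chr11:3058273-3058373: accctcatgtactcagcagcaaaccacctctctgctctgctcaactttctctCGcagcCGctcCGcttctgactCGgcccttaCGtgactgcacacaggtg
Ano4, chr10:88507715-88507815: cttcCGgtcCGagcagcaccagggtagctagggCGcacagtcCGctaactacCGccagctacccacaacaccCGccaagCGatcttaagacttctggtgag
Dpyd, chr3:118128775-118128875: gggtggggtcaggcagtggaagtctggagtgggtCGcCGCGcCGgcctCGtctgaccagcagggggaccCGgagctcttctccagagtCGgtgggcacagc
Sntg1, chr1:8286018-8286118: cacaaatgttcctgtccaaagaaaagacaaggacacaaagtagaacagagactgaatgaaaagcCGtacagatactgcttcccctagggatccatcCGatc
Vmn1r3, chr4:3158327-3158427: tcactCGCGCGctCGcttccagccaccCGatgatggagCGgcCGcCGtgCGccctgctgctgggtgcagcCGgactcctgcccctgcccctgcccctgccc
These 8 peaks were unlike each other in composition. The peak at App, the amyloid precursor gene, held 0 CpGs and had a GC content of 30.0% over 200 bp, whereas the peak listed under Vmn1r3, a vomeronasal receptor gene 45872 bp away, held 10 CpGs and had a GC content of 76.0%. The peak at Dpyd lay 7936 bp from the start of Mir137, which was closer than any coding gene. The peak with the lowest number of all, 26 on chromosome 9, lay 578133 bp from the start of Plod2 and 336 bp from a KO peak.

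CpG-rich members near the neural genes Pou3f2 and Pax3 are shown next, again with CpGs in capitals, because these genes had the most members of the neuroectoderm list below. They were chosen after their values were seen.
Pou3f2, chr4:22404745-22404845: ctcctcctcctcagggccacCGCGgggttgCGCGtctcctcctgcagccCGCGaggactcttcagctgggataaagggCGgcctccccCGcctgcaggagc
Pax3, chr1:78186150-78186250: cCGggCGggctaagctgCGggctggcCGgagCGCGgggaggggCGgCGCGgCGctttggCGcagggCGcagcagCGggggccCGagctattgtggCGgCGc
Pax3, chr1:78212538-78212638: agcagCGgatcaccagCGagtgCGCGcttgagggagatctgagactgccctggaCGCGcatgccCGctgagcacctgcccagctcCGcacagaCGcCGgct
The first Pax3 peak lay in an intron of Pax3 and held 16 CpGs. The other peaks of this group held 8 and 10 CpGs and were intergenic.

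The name numbers were the axis along which WT-only peaks became common. When the name numbers of each chromosome were divided into 10 equal classes, 8 of 1448 distal WT peaks (0.552%) in the lowest class lacked a KO peak, and in the fifth class 783 of 3021 (25.9%) did. The highest class reached 64.4%. The members therefore lay toward the upper end of the rule, with a median relative number of 0.412 (quartiles 0.344 and 0.459). What the number means is not given in the sources used here. Features are therefore also compared below with shared peaks over the same range of numbers, above 0.4.

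**Figure D1:**
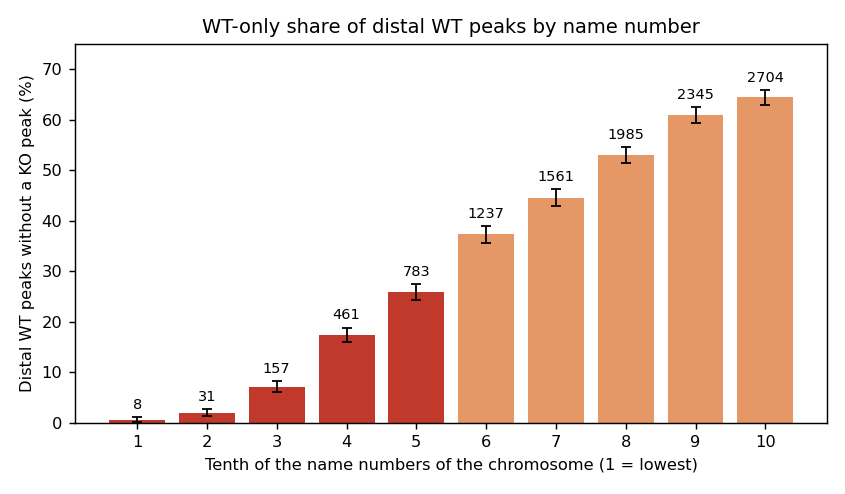
Share of distal WT peaks without a KO peak within 100 bp (y axis, %) in 10 equal classes of the name numbers of their chromosome (x axis, lowest numbers at the left). Red bars hold the members, orange bars the high-number peaks, error bars are 95% exact binomial intervals, and the number over each bar counts its WT-only peaks. The share was 0.552% in the lowest class and 64.4% in the highest.

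Values at the edges of the rule were as follows. Just inside the limit on distance, a member near 4921508M14Rik lay 102 bp from a KO peak and 1 near Epha6 lay 104 bp from it, and just outside it, peaks near Serpinb9g and Galk1 at 100 bp were left out. The member closest to a start lay 2001 bp from that of Dhrs3, and a WT-only peak 1998 bp from the start of Gdnf was left out. The last member by number, near Apbb2, had a relative number of 0.5, and the first peak beyond it, near Cd244, had 0.500189. Chromosome 8 would have added 220 peaks. The WT-only share of low-number distal peaks ran from 9.30% on chromosome 14 to 18.9% on chromosome 19, and the number of members from 43 on chromosome 19 to 156 on chromosome 1.

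The members were GC-rich against their surroundings and against every set compared. Their central 200 bp had a median GC content of 57.0% (interval 56.0 to 57.5, quartiles 51.5 and 62, range 27.0 to 86.5), while windows of the same length 1 kb to either side had a median of 45%. Shared low-number distal peaks had a median of 54.0%, high-number WT-only peaks 53.5% and low-number KO-only peaks 47.0%. The median of the members was higher than that of each of these sets on 18 of 18 chromosomes. Above a relative number of 0.4 the median was 56.0% (55.5 to 56.5) in 783 members and 53.0% (52.5 to 53.5) in 2238 shared peaks. The difference was thus also present within this range of numbers.

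**Figure D2:**
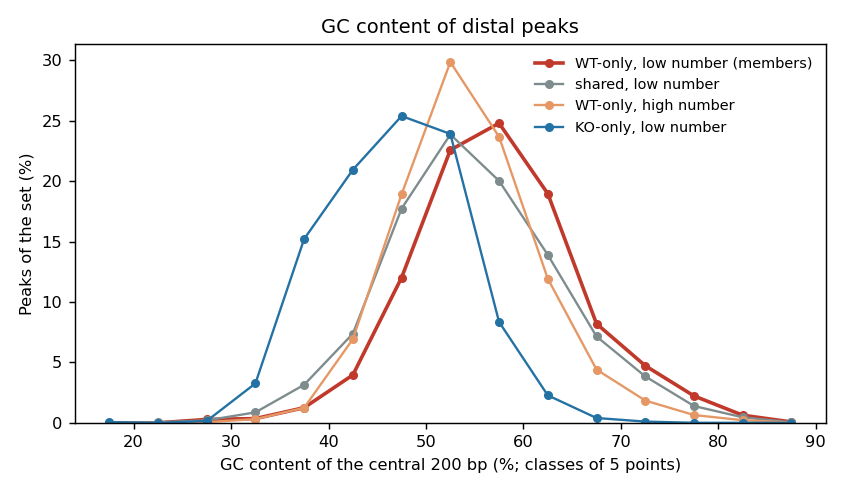
Distribution of GC content over the central 200 bp (x axis, %, classes of 5 points) as the share of peaks in each set (y axis, %). The members (red, median 57.0%) lie to the right of shared peaks (grey, 54.0%) and high-number WT-only peaks (orange, 53.5%), and KO-only peaks (blue, 47.0%) lie to the left.

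The members were also rich in CpG. A member held a median of 6 CpGs per 200 bp, against 4 in shared, 3 in high-number WT-only and 2 in KO-only peaks. A peak was called CpG-rich when its GC content was at least 55% and its observed to expected CpG ratio at least 0.65. Of the members, 241 (16.7%, interval 14.8 to 18.8) were CpG-rich. The share was 13.8% (13.1 to 14.5) in shared peaks, 8.01% (7.49 to 8.57) in high-number WT-only peaks and 1.04% (0.643 to 1.58) in KO-only peaks. It was higher in members than in shared peaks on 13 of 18 chromosomes. Over the numbers above 0.4 the gap was wider, with 13.5% (11.2 to 16.1) of members and 8.94% (7.79 to 10.2) of shared peaks. The call itself requires a high GC content, so the shares were also compared at like GC content, where no higher share of members was seen beyond the intervals. Between 55 and 65% GC, 12.2% (9.77 to 15.0) of members and 15.0% (13.8 to 16.3) of shared peaks were CpG-rich, and at 65% GC or more 71.9% (65.6 to 77.7) and 67.4% (64.7 to 70.0). At the other end, 84 members (5.83%) held no CpG in 200 bp, and 84 had a GC content under 45%.

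CpG-rich members differed from the other 1199 members in where they lay. A TSS was within 10 kb of 41.9% (35.6 to 48.4) of the CpG-rich and 30.2% (27.6 to 32.9) of the other members. Another WT peak was within 1 kb of 62.7% (56.2 to 68.8) and 29.8% (27.2 to 32.5). A KO peak was within 1 kb, though beyond the 100 bp of the rule, for 29.9% (24.2 to 36.1) of the CpG-rich and 11.8% (10.1 to 13.8) of the other members. The nearest coding gene was on 1 of the 12 lists described below for 28 of 241 CpG-rich members (11.6%, 7.86 to 16.4) and 38 of 1199 others (3.17%, 2.25 to 4.32). Over all low-number distal WT peaks, shared ones included, these shares were 7.55% of the CpG-rich (117 of 1550, 6.28 to 8.98) and 3.40% of the others (319 of 9396), so CpG-rich peaks in general lay near listed genes more often. Of the 28 CpG-rich members, 7 belonged to a repeated array beside Ezh2 described below, and without Ezh2 the share was 8.97% (21 of 234, 5.64 to 13.4) of the CpG-rich members and 6.16% (94 of 1527, 5.00 to 7.48) of all CpG-rich peaks, with overlapping intervals.

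Relative to genes, 878 members (61.0%) were intergenic, 430 (29.9%) were centred in an intron and 132 (9.17%, interval 7.73 to 10.8) in an exon. Of the exonic members, 90 were in coding sequence. The exonic share was 4.82% (4.40 to 5.27) in shared peaks, 7.0% (6.5 to 7.52) in high-number WT-only peaks and 1.83% (1.29 to 2.51) in KO-only peaks, and it was higher in members than in shared peaks on 17 of 18 chromosomes. Exons are GC-rich, so the shares were also compared at like GC content. Between 55 and 65% GC, 10.3% (8.05 to 12.96) of members and 6.11% (5.31 to 6.99) of shared peaks were exonic, and at 65% GC or more 21.5% (16.3 to 27.4) and 14.6% (12.6 to 16.7). Between 45 and 55% GC the intervals overlapped, at 3.21% (1.85 to 5.17) and 1.85% (1.45 to 2.32). Above a relative number of 0.4, 10.5% (8.42 to 12.8) of members and 5.27% (4.38 to 6.28) of shared peaks were exonic. The intronic share of members, by contrast, lay beside that of shared peaks (29.3%, 28.4 to 30.2). The median distance to the nearest TSS of any kind was 18987 bp (17340 to 20407) in members and 21339 bp (20331 to 22250) in shared peaks, and these intervals overlap at their ends.

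Some members rested on repeated sequence, among them 6 of the 12 with the lowest relative numbers (near Cyp4a12b, Dmrta1, Cntn3, Gm11044 and, with 2, Pdia4). That near Dmrta1 had 4448 copies of its centre. The 31 bp at the centre of a member occurred at 2 or more places of the genome for 164 members (11.4%, 9.79 to 13.1), at more than 10 places for 63 and, at most, at 12568 places. Repeated centres were more frequent among shared peaks (17.3%, 16.6 to 18.1) and KO-only peaks (28.7%, 26.7 to 30.7) and about as frequent among high-number WT-only peaks (10.4%, 9.79 to 11.004). Because 1 alignment was reported per read, a read from such a sequence was placed at 1 of its copies. Leaving out peaks with a repeated centre, the median GC content of the members was 57.0% and the exonic share 9.95% (8.36 to 11.7), against 55% and 5.70% (5.20 to 6.24) in shared peaks. The CpG-rich share was then 16.8% (14.8 to 19.02) against 15.2% (14.4 to 16.0), with overlapping intervals.

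Motifs of 20 kinds were searched on both strands of the central 200 bp, as exact letters. The octamer ATGCAAAT, the sequence that Oct4 recognises, was found in 20 members (1.39%, 0.850 to 2.14), which was also its share in the flanks (1.42%). Shared peaks held it in 2.75% (2.43 to 3.09) against 1.68% in their flanks, KO-only peaks in 3.60% (2.84 to 4.51) and high-number WT-only peaks in 1.78% (1.53 to 2.06). The share was lower in members than in shared peaks on 15 of 18 chromosomes, and above a relative number of 0.4 it was 1.66% (0.887 to 2.82) against 3.04% (2.37 to 3.84), with overlapping intervals. At like GC content the intervals overlapped in each class, for example 2.61% (1.40 to 4.42) against 4.07% (3.48 to 4.74) between 45 and 55% GC. None of the 241 CpG-rich members held the octamer, and a count of 0 allows up to 3 counts, a share of 1.24% (the exact interval reaches 1.52%).

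Octamer members with the lowest relative name numbers and a single-copy centre were the following, with the octamer in capitals, here always as its reverse complement.
Fshr, chr17:89884952-89885052: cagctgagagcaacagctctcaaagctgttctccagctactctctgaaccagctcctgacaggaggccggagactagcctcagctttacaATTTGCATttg
Anks1b, chr10:90326747-90326847: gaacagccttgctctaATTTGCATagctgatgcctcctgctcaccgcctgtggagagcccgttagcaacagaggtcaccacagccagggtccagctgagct
Ipmk, chr10:70911268-70911368: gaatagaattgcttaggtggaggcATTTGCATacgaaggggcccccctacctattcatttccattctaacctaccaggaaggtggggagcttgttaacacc
Mgst3, chr1:169304641-169304741: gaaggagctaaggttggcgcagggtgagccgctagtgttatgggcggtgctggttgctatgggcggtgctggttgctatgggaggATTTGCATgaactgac
Fshr encodes the receptor of follicle-stimulating hormone. The peak under its name lay 284987 bp from its start and had a GC content of 42.0%, and that at Anks1b lay in an intron 31041 bp from its start and had 56.0%. The other octamer members included a peak 803225 bp from the start of Cdh2, which encodes N-cadherin, and a pair of overlapping peaks near 5930403N24Rik.

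The motif AGNGGGC, the core of the CTCF site, was found in 397 members (27.6%, 25.3 to 30.0) and in 9.17% of their flanks. Shared peaks held it in 22.2% (21.4 to 23.0), high-number WT-only peaks in 24.8% (23.9 to 25.6) and KO-only peaks in 10.5% (9.17 to 11.9), and the share was higher in members than in shared peaks on 14 of 18 chromosomes. The intervals of members and high-number WT-only peaks overlapped. The order depended on GC content. Between 45 and 55% GC, 24.3% (20.6 to 28.3) of members and 16.9% (15.8 to 18.2) of shared peaks held the motif. Between 55 and 65% GC the intervals overlapped, at 30.8% (27.2 to 34.6) and 27.9% (26.4 to 29.5). At 65% GC or more the order was the opposite, at 32.0% (26.0 to 38.5) and 36.6% (33.9 to 39.4), with overlapping intervals.

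Of the other motifs, GGGNGTGG, bound by Klf factors, was found in 11.1% of members (9.53 to 12.8) and 14.5% (13.8 to 15.3) of shared peaks, although members were the more GC-rich set. CATTGTT, bound by Sox factors, was found in 1.67% (1.07 to 2.47) of members, 3.02% (2.68 to 3.38) of shared peaks and 5.58% (4.62 to 6.67) of KO-only peaks, and AGATAA, bound by Gata factors, in 3.96% (3.01 to 5.10), 5.28% (4.84 to 5.75) and 13.1% (11.6 to 14.6). At like GC content the intervals of members and shared peaks overlapped in each class for both motifs. Under 45% GC the order was the opposite, with CATTGTT in 4.76% (1.31 to 11.7) of members and 3.98% (2.91 to 5.30) of shared peaks and AGATAA in 16.7% (9.42 to 26.4) and 10.6% (8.83 to 12.5), and between 45 and 55% GC CATTGTT was found in 3.01% (1.70 to 4.92) and 4.30% (3.69 to 4.98). GGGNGTGG remained less frequent in members at 65% GC or more, at 8.33% (5.09 to 12.7) and 18.2% (16.1 to 20.5). CAGCAGG, a Zic motif, was found in 14.2% of members and 4.76% of their flanks, and in 12.6% of shared peaks. CCGGAAG, bound by Ets factors, was found in 3.40% of members and 0.938% of their flanks. The alternating repeat CACACACA was found in 3.68% (2.77 to 4.79) of members and 2.60% (2.29 to 2.94) of shared peaks, and in 6.28% of the flanks of members. The remaining motifs (Esrrb CAAGGTCA, Stat3 TTCCNGGAA, AP-1 TGANTCA, Tead GGAATG, the E-box CACGTG, Yy1 AANATGGC, Zfx AGGCCTNG, Tbx AGGTGTGA, CRE TGACGTCA, and parts of the NRF1, Rest and Kaiso sites) were each found in between 0.278 and 9.79% of members.

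**Figure D3:**
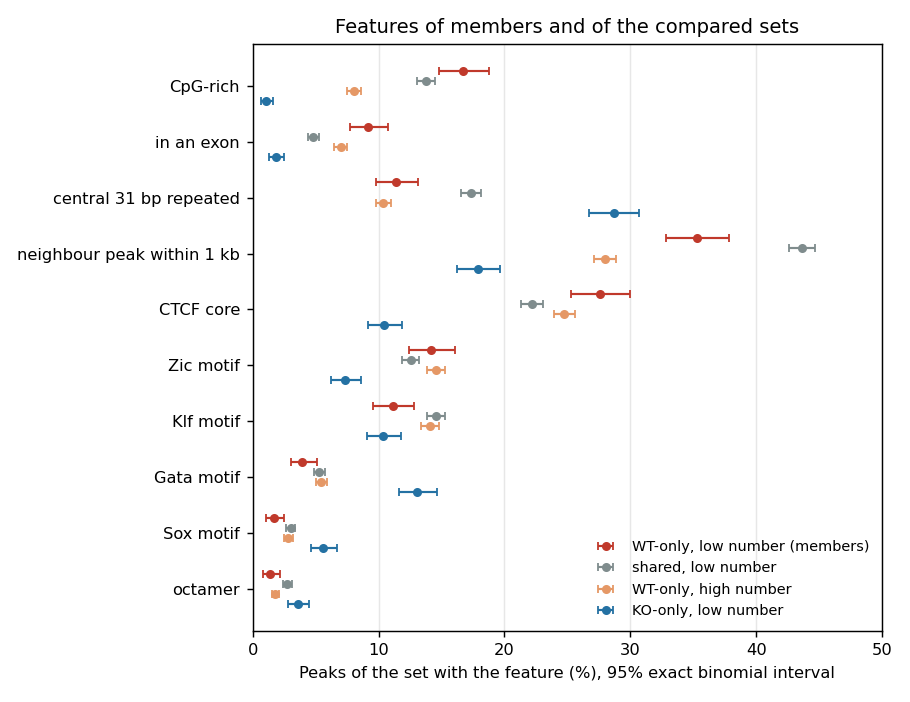
Share of peaks with each feature (x axis, %) in the members (red) and in the sets compared with them (grey, orange, blue), with points for the shares and bars for 95% exact binomial intervals. Members stand to the right for CpG-rich sequence (16.7%), exons (9.17%) and the CTCF core (27.6%), and to the left for the octamer (1.39%) and the Sox motif (1.67%). At like GC content the intervals of members and shared peaks overlapped for CpG-rich sequence, the octamer and the Sox motif. For the CTCF core they overlapped in every GC class except 45 to 55%.

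By the rule no member had a KO peak within 100 bp, and most lay farther than 1 kb from one. The nearest KO peak was at most 200 bp away for 76 members (5.28%), up to 1 kb for a further 138 (9.58%), up to 10 kb for 460 (31.9%), up to 50 kb for 555 (38.5%) and farther for 211 (14.7%). The median gap was 11542.5 bp (10444 to 12568), beside 14676 bp (14175 to 15270) in high-number WT-only peaks. From low-number KO-only peaks to a WT peak it was 18406 bp (16404 to 19881). A KO peak was within 1 kb of 14.9% (13.1 to 16.8) of members and 11.3% (10.7 to 11.9) of high-number WT-only peaks. A WT peak was within 1 kb of 9.19% (7.96 to 10.5) of low-number KO-only peaks. Another WT peak was within 1 kb of 508 members (35.3%, 32.8 to 37.8), which was less frequent than for shared peaks (43.6%, 42.6 to 44.7) and more frequent than for high-number WT-only peaks (28.0%, 27.1 to 28.9). For 384 of the 508 the nearest of these neighbours was itself WT-only. When WT peaks within 100 bp of each other were joined, the members fell into 1358 regions, of which 1135 consisted of a single peak and 194 of several peaks that all lacked a KO peak. In the other 29 regions a member sat beside a shared peak.

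Most stretches free of KO peaks that held a member held few WT-only peaks. The members lay in 1297 stretches between consecutive KO peaks, with a median length of 71999 bp. Of these stretches, 563 held 1 WT-only peak, 369 held 2, 276 held 3 or 4 and 89 held at least 5 WT-only peaks of any number or position, a count that fell to 39 when neighbouring peaks were joined. CpG-rich members made up 38 of the 123 members in the 89 stretches (30.9%, 22.9 to 39.9) and 203 of the 1317 members elsewhere (15.4%, 13.5 to 17.5). The stretch with most WT-only peaks, 14 over 233835 bp of chromosome 19, held members near Lbx1, a homeobox gene of muscle precursors and the dorsal spinal cord, and near Btrc, which encodes a subunit of a ubiquitin ligase. Within such a stretch every WT peak more than 100 bp from its ends is WT-only by construction. A stretch of 469480 bp on chromosome 4 with 10 WT-only peaks held 4 members near Chd7, a chromatin remodeller needed in the neural crest, and Clvs1. Stretches with 10, 10 and 9 WT-only peaks held 1 member each near Tcfap2c, which encodes the trophoblast and germ cell factor AP-2 gamma, near the myosin light chain gene Myl2 and near the casein kinase gene Csnk1e.

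The members were spread over many genes. They were nearest to 1198 coding genes, of which 1016 had 1 member and 182 had several. Ezh2, the catalytic subunit of Polycomb repressive complex 2, and its neighbour Pdia4, a protein disulfide isomerase, had 7 members each, and these 14 formed 1 array between the genes on chromosome 6. Between positions 47545341 and 47746140 the WT list held 57 peaks, of which 19 were WT-only, and the KO list held 37, of which 7 were KO-only. Of these, 47 WT and 22 KO peaks had a repeated centre, with a median of 15 copies over the WT peaks. A member of the array with 15 copies of its centre is shown, with CpGs in capitals.
Pdia4, chr6:47698870-47698970: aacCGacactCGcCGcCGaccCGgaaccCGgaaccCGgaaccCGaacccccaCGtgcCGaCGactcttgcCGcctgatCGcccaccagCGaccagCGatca
It lay 64591 bp from the start of Pdia4 and 128 bp from a KO peak. RefSeq, on GRCm38.p6, lists 6 coding genes and no tRNA gene between Ezh2 and Pdia4. A second cluster with 5 members near Fcgr3, a receptor of immunoglobulin G, had 3 copies of each centre, and RefSeq lists 17 tRNA genes between Fcgr3 and the next coding gene. Both clusters were looked up after their values were seen. Since reads were placed at 1 of the copies, WT-only and KO-only peaks within these arrays cannot be told apart from a different placing of reads.

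Of the other genes with most members, Tead1, Ccnd1 and Fam105a had single-copy centres throughout, as had Pax3 and Pou3f2 described below. These genes were chosen for having most members, so high shares follow from the choice. Tead1, a transcription factor of the Hippo pathway, had 5 members, of 6 low-number distal WT peaks, beside 13.2% of all such peaks. They lay at 2 places, so counts per gene include peaks that adjoin. Ccnd1, which encodes cyclin D1, had 4 members, and these were all of its low-number distal WT peaks, beside 13.2% of all such peaks. They were 2 pairs of overlapping peaks, the nearest 3581 bp and the farthest 91193 bp from its start. Fam105a also had 4 members, 5 of 5 distal WT peaks were WT-only, beside 38.2% of all distal WT peaks, and no distal KO peak was nearest to it. Of these members, 2 overlapped each other in exonic sequence of Trio, 92465 and 92541 bp from the start of Fam105a. Xkr4 and Dbc1 also had 5 members each. None of these 10 was CpG-rich, and centres at Xkr4 occurred at up to 4816 places. The KO-only peaks (26 of 74 distal KO peaks at Xkr4, 9 of 17 at Dbc1) were more numerous than the WT-only peaks (20 of 73 and 6 of 14). Over all distal peaks the shares were 38.6% KO-only and 38.2% WT-only. Both shares lay below these at Xkr4 and above them at Dbc1.

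The nearest coding gene of 66 members was on 1 of 12 lists of developmental and chromatin genes. These members belonged to 41 of the 342 listed genes in the annotation. Of the 436 low-number distal WT peaks near listed genes 15.1% (11.9 to 18.9) were members, beside 13.2% of all such peaks, so the lists as a whole lay near the background. The shares by list follow from the contrast of the rule and are descriptions over 12 lists, with no test.

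Neuroectoderm genes had the highest share. Of 62 low-number distal WT peaks nearest to genes of this list, 21 (33.9%, 22.3 to 47.0) were members, beside the background of 13.2%. They were spread over 12 genes. Pax3, a transcription factor of the neural crest and dorsal neural tube, and Pou3f2, a POU factor of neural progenitors, had 5 members each and Otx1, a homeobox gene of the forebrain, had 2. Pax6, Pax7, Olig3, Lhx2, Lhx5, Six3, Nkx2-2 and Dlx2, transcription factors of the developing nervous system, were among those with 1 each. Otx1, Pax3 and Pou3f2 were named by the naming rule, and Pax6, Pax7, Olig3, Lhx2, Lhx5, Six3, Nkx2-2 and Dlx2 were added after their values were seen. The gaps from the Pou3f2 members to a KO peak were 129, 148, 396, 2021 and 2321 bp, and those from the Pax3 members ran from 337 to 17929 bp. The Pou3f2 member with the gap of 148 bp lay 705545 bp from the start of Pou3f2. A start of Gm11884 was nearer to it, at 66906 bp. Without Pax3 and Pou3f2 the share was 23.9% (11 of 46, 12.6 to 38.8), an interval that includes 13.2%.

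The same contrast was described for the list's other peaks. Among its high-number distal WT peaks, 65 of 91 (71.4%, 61.0 to 80.4) were WT-only, beside 52.9% of all high-number distal WT peaks. This was not particular to the list, since the share was 70.0% (7 of 10) for the germline list, 69.4% (25 of 36, 51.9 to 83.7) for the trophoblast list, 61.0% (25 of 41) for the endoderm and 59.0% (46 of 78) for the mesoderm list. Within 2 kb of a start, 7 of 55 low-number WT peaks of the neuroectoderm list (12.7%, 5.27 to 24.5) were WT-only, beside 8.75% of all, and 5 of 16 of the trophoblast list (31.3%, 11.02 to 58.7). Among low-number distal KO peaks near neuroectoderm genes, 2 of 31 (6.45%, 0.791 to 21.4) were KO-only, beside 17.0% of all. The 62 peaks with the 21 members had a median relative number of 0.372, beside 0.308 for all, so their share is also given in parts, which are the same peaks divided and add no support. Above 0.4 it was 52.2% (30.6 to 73.2) beside 25.9% of all, and at 0.4 or less 23.1% (11.1 to 39.3) beside 8.29%. Of the CpG-rich peaks among the 62, 9 of 19 were members (47.4%, 24.4 to 71.1, beside 15.5% of all CpG-rich peaks), and of the others 12 of 43 (27.9%, 15.3 to 43.7, beside 12.8%).

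**Figure D4:**
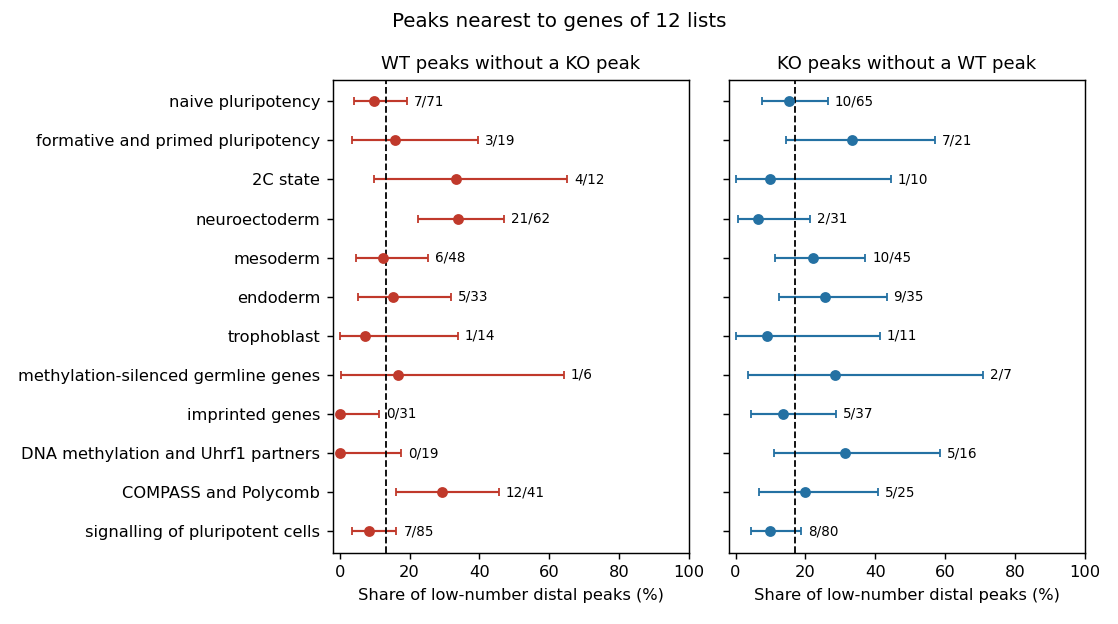
Share of low-number distal peaks nearest to genes of each list that lacked a peak in the other genotype (x axis, %), for WT peaks (left, red) and KO peaks (right, blue), with 95% exact binomial intervals, counts beside the points and dashed lines at 13.2% and 17.0% for all peaks. Neuroectoderm stands at 21 of 62 WT peaks and 2 of 31 KO peaks, and imprinted genes at 0 of 31 WT peaks. The median relative number of these WT peaks was 0.372 for neuroectoderm and 0.258 for imprinted genes, beside 0.308 for all.

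Pax3 was drawn with Foxa1 after the values were seen. Of the 12 distal WT peaks whose nearest coding gene was Pax3, 9 were WT-only, beside 38.2% of all distal WT peaks, and the 3 distal KO peaks nearest to it all had a WT partner, beside 38.6% of all distal KO peaks that had none. The drawn window also holds peaks nearest to other genes, and there 3 of 11 KO peaks were KO-only. Its 5 members fell into 3 places. Of the CpG-rich members, 1 was 7509 bp downstream of its start, within the gene, and 2 were 18879 and 19843 bp upstream, the nearer of these shown above. The other 2 lay side by side 224586 and 224648 bp downstream, with GC contents of 47.5 and 47.0%. A shared peak lay 20250 bp upstream of the start, so the upstream cluster kept 1 open site in the KO list. Pou3f2 did not show this pattern, since 8 of its 12 distal WT peaks were WT-only and 7 of its 12 distal KO peaks were KO-only.

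**Figure D5:**
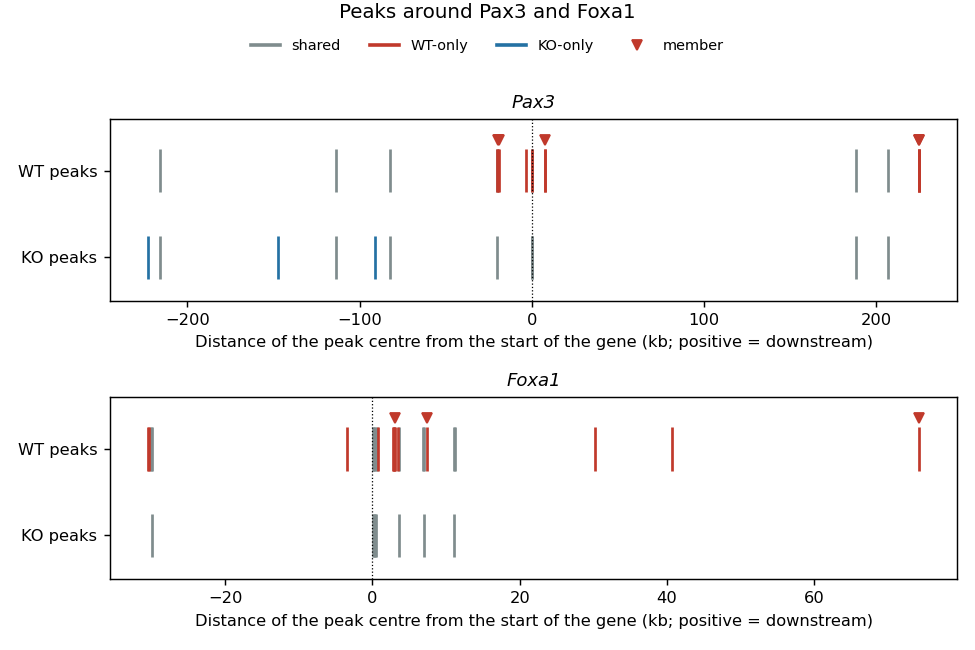
Positions of WT and KO peaks (rows) around the starts of Pax3 and Foxa1 (x axis, distance of the peak centre from the start in kb, positive downstream), with shared peaks in grey, WT-only peaks in red, KO-only peaks in blue and triangles over the members. Pax3 has 5 members and Foxa1 has 3, and of the KO peaks drawn 3 of 11 at Pax3 and 0 of 8 at Foxa1 are KO-only.

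Mesoderm and endoderm genes lay near the background, with single genes apart from it. Of 48 mesoderm peaks 6 (12.5%, 4.73 to 25.2) and of 33 endoderm peaks 5 (15.2%, 5.11 to 31.9) were members. Foxa1, a pioneer factor of the endoderm, had 3 members, and 10 of its 15 distal WT peaks were WT-only, beside 38.2% of all, while none of its 3 distal KO peaks was KO-only, beside 38.6%. The farthest Foxa1 member lay 74208 bp from the start of Foxa1, in an intron of Mipol1. Foxa2, a related factor, had 2 members, and there 6 of 11 distal WT and 6 of 13 distal KO peaks were unshared. Foxc1, a factor of paraxial mesoderm, had 2 members with GC contents of 71 and 76%, about 5 kb from its start, and 7 of 9 distal WT peaks were WT-only. Tbx20 and Meis2 had 1 CpG-rich member each. In the mesoderm list 5 of 6 members were CpG-rich, but so were 17 of its 48 peaks. Of these 17, 5 were members (29.4%, 10.3 to 56.0), an interval that includes the 15.5% of all CpG-rich peaks. Of the other mesoderm peaks 1 of 31 was a member (3.23%, 0.0816 to 16.7), beside 12.8% of all others. In the trophoblast list 1 of 14 peaks was a member, 3601 bp from the start of Id2, an inhibitor of helix-loop-helix factors.

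Pluripotency genes lay near the background. Of 71 low-number distal WT peaks near genes of naive pluripotency, 7 (9.86%, 4.06 to 19.3) were members, an interval that includes 13.2%. Lin28a, an RNA-binding protein that blocks the maturation of let-7, had 2, at 6819 and 6899 bp from its start. They overlapped each other. All 5 distal WT peaks nearest to Lin28a were WT-only, beside 38.2% of all distal WT peaks, and the KO list had no distal peak there. Sox2 had 1 member, a CpG-rich peak 9094 bp from its start with a GC content of 63.0%, but 3 other low-number distal WT peaks at Sox2 were shared. Prdm14, Tbx3, Zfp281 and Jam2 had 1 member each. Of the formative and primed list 3 of 19 peaks (15.8%, 3.38 to 39.6) were members. Of these, 2 had Cdh2 as their nearest coding gene but lay 803225 and 1076172 bp from its start. The other was at Lef1, a factor of the Wnt pathway, 4326 bp from its start. Of the signalling list 7 of 85 (8.24%, 3.38 to 16.2) were members, including 2 adjoining peaks 112510 and 112584 bp from the start of Spred2 and 1 each near Spred1, both inhibitors of Ras and ERK signalling, and near Smad7, an inhibitor of TGF-beta signalling. The Spred1 peak lay 102889 bp from the start of Spred1. The Smad7 peak lay 120192 bp from the start of Smad7, in an intron of Ctif.

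Genes of the 2-cell-like state, which a few cells of an ESC culture enter, had 4 members among 12 peaks (33.3%, 9.92 to 65.1). This interval includes the background of 13.2%. Zscan4c had 2 members, 29301 and 34267 bp from its start, and Tdpoz3 had 2 that overlapped each other. Both genes belong to families of near-identical copies, but the centres of both Zscan4c members and of 1 Tdpoz3 member occurred at 1 place of the genome and that of the other Tdpoz3 member at 2.

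COMPASS and Polycomb genes had 12 members among 41 peaks (29.3%, 16.1 to 45.5), beside the background of 13.2%, but 7 of these were the repeated array beside Ezh2. Without Ezh2 the count was 5 of 17 (29.4%, 10.3 to 56.0), an interval that includes 13.2%. Setd1b, a catalytic subunit of COMPASS, had 2 members 6889 and 7247 bp from its start. They were its only distal WT peaks, so 2 of 2 were WT-only, beside 38.2% of all distal WT peaks. No distal KO peak was nearest to Setd1b. Cbx7, a chromodomain subunit of Polycomb repressive complex 1, had 1 member, and 2 of its 4 distal WT peaks were WT-only. Pcgf5 and Cbx6 also had 1 each and were added after their values were seen.

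Imprinted genes and genes of DNA methylation had no member. Of 31 low-number distal WT peaks at imprinted genes, 0 were members, which allows up to 3 counts, a share of 9.68% (the exact interval reaches 11.2%). At Uhrf1, its partners and other genes of DNA methylation, 0 of 19 were, which allows up to 15.8% by 3 counts and 17.6% by the exact interval, limits above the background. High-number peaks at both lists did include WT-only ones, 20 of 45 (44.4%) and 15 of 29 (51.7%), beside 52.9% of all. Of the germline genes known to be silenced by DNA methylation, 1 of 6 peaks was a member, 14314 bp from the start of Tuba3a.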

How the data were processed

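The authors mapped ATAC-seq reads of 1 WT and 1 Uhrf1 KO library to mm9 with Bowtie2 2.1.0, reporting 1 alignment per read, and used fragments shorter than a mononucleosome. The submitters' processing notes also name HOMER 4.9.1, without a role. The peak caller and threshold are not given in the sources used here. The deposited score was 1 for every peak, so the authors' peak positions and name numbers were used, with no count or depth per peak.

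The lists were handled in Python 3.11.15 (pandas 2.3.3, numpy 2.4.6), with scipy 1.17.1 for intervals. Peaks no more than 100 bp apart were taken as shared, as the study did for factor binding sites. Starts, exons and genes were those of GENCODE vM1, and sequence was read from the NCBIM37 genome, which is the same build as mm9. GC content, CpGs and motifs were taken over 200 bp, with flanks 1 kb away, and exact copies of the central 31 bp were counted over the genome on both strands. The gene nearest to a peak was the coding gene with the nearest start. On 20000 simulated regions with known partners the matching of peaks made 0 wrong calls. Members, gene lists and motifs were chosen with earlier results of these data known. Genes were named as nearest to the 12 members of lowest relative number, the 10 genes with most members, listed genes (every gene of the pluripotency and 2C lists, up to 3 per other list) and the 5 stretches with most WT-only peaks; exceptions are stated, and 1 gene that this rule names is not reported here. RefSeq served only for neighbouring genes.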

Additional observations from a re-analysis of the deposited data

How the results depend on the processing

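The number of members depended most on the name number, and their features on several choices. With the lower 25% of numbers there were 85 members, 2.07% of their peaks, with median GC 59.5%, median TSS distance 30892 bp, 24.7% CpG-rich, 28.2% with a repeated centre, 2.35% with the octamer, 32.9% intronic, 20% within 1 kb of a KO peak, 1 listed gene and 9 stretches. With the lower 50% taken among distal peaks there were 2884 members (19.5%), median GC 55.5%, 13.7% CpG-rich, 71 listed genes and 165 stretches. When overlap required 1 shared base, 15.9% of peaks were members, 29.4% of members had a KO and 44.4% another WT peak within 1 kb, and 18.9% were CpG-rich. With 500 bp these values were 11.7, 3.99, 28.2 and 14.7%. A TSS distance of 1 kb gave 17.7% with a KO peak within 1 kb, 38.2% with another WT peak, 32.7% intronic, 19.4% CpG-rich and a median TSS distance of 15056 bp, 5 kb gave 24956.5 bp, and protein-coding starts alone 17073.5 bp. Joined neighbours gave 13.9% members, 12.6 and 30.1% with a KO or WT peak within 1 kb, and 39 stretches. Single-copy peaks gave 13.97% members. Median GC was 58.4% over the whole peak and 52.2% over 500 bp, where 12.4% were CpG-rich. Stretches with at least 3 WT-only peaks numbered 365. Above a relative number of 0.4, 13.5% of members were CpG-rich. That comparison, the exonic share of single-copy peaks and the list shares without Pax3, Pou3f2 or Ezh2 were chosen after seeing the data. The other 89 of 131 alternative values stayed within the interval of the main value, or for numbers of members, genes and stretches within 1.5 times.

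No paired analysis was possible because there is 1 library of each genotype. Without replicates or reads per peak, closed sites and sites under an unknown threshold cannot be told apart in the KO list.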
